A study of Homo sapiens with 2 samples.

Results

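The 56 genes described here encode the proteins that carry a cell through mitosis: cyclins and CDK1, the mitotic kinases, the spindle checkpoint and kinetochore, kinesins, spindle and cytokinesis factors, and the transcription factors that switch them on. They were chosen by name and function, with earlier results of these data known. All 56 were found among the 26255 gene symbols of the deposited files. All had a mean of at least 1 FPKM (fragments scaled by transcript length and library size) over both libraries, as did 12414 genes in all.

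The tumours were xenografts of the established line HT-29, derived from a human colon cancer and grown under the skin of female NOD SCID mice obtained at 5 weeks of age. These mice carry no T or B cells, while their stromal and other host cells are mouse cells. One group ate normal food and the other ate food that lacked methionine, tryptophan and niacin together, for 2 weeks according to the design text, which elsewhere gives 3. There was 1 library for each diet. The sources used here do not give the number of mice behind a library or any pooling. The values below carry no replicate check or p-value, and diet, tumour and library cannot be told apart.

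Mitotic genes are made in waves. Their transcription starts late in S phase and peaks in G2 and mitosis, when FOXM1 and B-MYB act together with the MuvB complex, and the same promoters are held silent by the DREAM complex in resting cells. Their RNA therefore follows the share of cells that divide, and MKI67 and its companions are used as markers of proliferation in colon tumours. In a bulk tumour, fewer dividing cells and less mitotic RNA per cell cannot be told apart.

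A feature shared by many of these genes lies in their promoters and was not used to choose them. The cell cycle homology region (CHR), read here as TTTGAA or TTTAAA on either strand, is the element that MuvB binds, and the CCAAT box, read as CCAAT on either strand, is bound by NF-Y. RefSeq promoter windows on build GRCh38.p14, from 250 bases before to 50 bases after each listed start, were matched by symbol for 47 of the 56 genes. At least 1 CHR-type match was present in 39 of the 47 genes (83.0%), against 27.9% of all 27305 genes with such windows. TTTGAA was in 33 of them (70.2%, against 18.2% of all genes) and TTTAAA in 15 (31.9%, against 14.5%). CCAAT was present in 38 of 47 (80.9%, against 39.7%), and both kinds of match in 30 (63.8%, against 11.2%). The CHR-type matches lay close to the start. In 35 of 47 genes (74.5%) a match began between 60 bases before and 50 bases after it, a window set after the positions were seen, against 10.2% of all genes. In the members' windows 5 pairs of matches shared letters. Genes of DNA replication, which are switched on earlier in the cycle, had a CHR-type match in 3 of 30 matched genes (10.0%) and CCAAT in 20 (66.7%). A match is a string of letters and says nothing of binding.

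The stretches below, from 100 bases before to 30 bases after a listed start, are shown for CDK1 and both B-type cyclins, the core of the mitotic kinase, and for CDC25A and SPC24, which had the highest ratios of the genes with a window. Positions are on GRCh38.p14, whereas the FPKM were made on hg19 and carry no coordinates. Capitals mark CHR-type and CCAAT matches, which on the opposite strand read TTCAAA and ATTGG. CDK1 (chr10:60778378-60778507, plus strand) has 2 listed starts, of which the start with more matches is shown. CCNB1 lies at chr5:69167050-69167179, plus strand, CCNB2 at chr15:59105046-59105175, plus strand, CDC25A at chr3:48188388-48188517, minus strand, and SPC24 at chr19:11155753-11155882, minus strand.
CDK1: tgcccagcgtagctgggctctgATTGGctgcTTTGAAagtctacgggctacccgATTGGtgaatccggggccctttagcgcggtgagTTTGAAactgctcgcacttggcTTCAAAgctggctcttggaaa
CCNB1: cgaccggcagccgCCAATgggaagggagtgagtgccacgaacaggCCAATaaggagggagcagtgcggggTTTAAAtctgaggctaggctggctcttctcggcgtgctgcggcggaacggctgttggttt
CCNB2: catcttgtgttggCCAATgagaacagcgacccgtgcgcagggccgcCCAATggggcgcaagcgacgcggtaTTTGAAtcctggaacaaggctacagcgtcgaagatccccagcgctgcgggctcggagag
CDC25A: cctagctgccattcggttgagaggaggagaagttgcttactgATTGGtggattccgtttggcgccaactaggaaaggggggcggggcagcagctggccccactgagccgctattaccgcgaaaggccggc
SPC24: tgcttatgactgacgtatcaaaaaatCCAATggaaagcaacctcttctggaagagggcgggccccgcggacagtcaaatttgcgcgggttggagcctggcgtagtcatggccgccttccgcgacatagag
The CDK1, CCNB1 and CCNB2 stretches hold CHR-type matches beside 2 CCAAT matches each. Those of CDC25A and SPC24 hold 1 CCAAT match and no CHR-type match.

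For the 2 libraries as a whole, genes above 0 numbered 16481 on the normal diet and 16427 on the depleted diet. Steps in the low values of genes with a single transcript put the depth at about 7e+06 and 6.9e+06 fragments. The colon epithelial markers fitted the label, with all 10 at a mean of 5.03 FPKM or more and EPCAM at 472 and 444 FPKM. Of 8 fibroblast, 6 endothelial, 9 leukocyte, 5 muscle and 4 fat markers, 2, 1, 2, 0 and 0 reached 1 FPKM. Their sums with normal and depleted food were 5.16 and 4.74 FPKM for fibroblasts, 6.92 and 9.47 for endothelium, 27.4 and 22.8 for leukocytes, mostly CD68, 0 and 0.432 for muscle, and 0.506 and 0.501 for fat. The fibroblast markers that reached a mean of 1 FPKM were COL1A1 (2.33 and 2.77 FPKM) and LUM (1.99 and 0.966 FPKM). For endothelium it was ENG (6.71 and 9.36 FPKM), most of that sum, and for leukocytes CD68 and CD14 (0.709 and 1.49 FPKM). Among the others, COL3A1 was under 0.1 FPKM, and PTPRC, CDH5, CD3E and ADIPOQ were also at or near 0. The part of mouse reads in the mitotic values was not tested.

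The main comparison asked whether the mitotic programme differed between the diets. It differed little. The log2 ratio of each gene, log2((depleted + 1)/(normal + 1)) in FPKM, ran from -0.30 for PLK1 to 0.62 for SPC24, and 47 of the 56 genes (83.9%) lay between -0.2 and 0.2, as did 72.8% of all genes in the same range of levels. A threshold was set at a log2 ratio of 0.32 in either direction. Above it lay 3 genes, SPC24, CENPM and CDC25A, beside 6.94% of all genes. Below it in the other direction lay 0 of the 56, beside 7.15% of all genes, and 0 differed 2-fold, beside 0.894% of all genes. Among the 8924 genes in the members' range of levels, 436 lay above the threshold, 464 below it in the other direction, and 9 differed 2-fold. The count of members above the threshold is near its background share, and the count in the other direction is below its share. With so few 2-fold genes in that range, 0 of 56 does not set the members apart. For 1 library a diet such counts could not be tested.

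Counted at any size, past the threshold or not, more members were lower than higher. On the depleted diet 37 genes were lower (66.1%) and 19 higher (33.9%), against 50.6% and 49.4% of all genes, with a median of -0.05 beside 0.00 for all genes. The counts of higher and lower genes move with the scale, for the members and for all genes. After scaling to an equal FPKM sum, which multiplies the depleted values by 1.03, 28 members were lower and 28 higher, beside 41.5% of all genes lower. The median was then 0.00, beside 0.04 for all genes. An equal upper quartile gave 38 lower and 18 higher, beside 54.2% of all genes lower, with a median of -0.064. Setting the median ratio of genes at 5 FPKM or more to 0 gave 34 and 22, beside 49.5%, with a median of -0.040. Below, either scale means as deposited or with an equal FPKM sum. Set against the median of all genes, 35 of 56 members were below it, a count added after seeing the data. By level, 1 of 2 members at 1 to 5 FPKM was higher, beside 51.3% of genes at that level, and 3 of 5 at 5 to 10 FPKM, beside 52.1%. Above that, 5 of 20 members at 10 to 20 FPKM were higher, beside 52.1%, 4 of 15 at 20 to 50 FPKM, beside 48.8%, and 6 of 14 at 50 to 100 FPKM, beside 41.5%. Mitotic genes are transcribed together, so they are not independent observations.

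**Figure D1:**
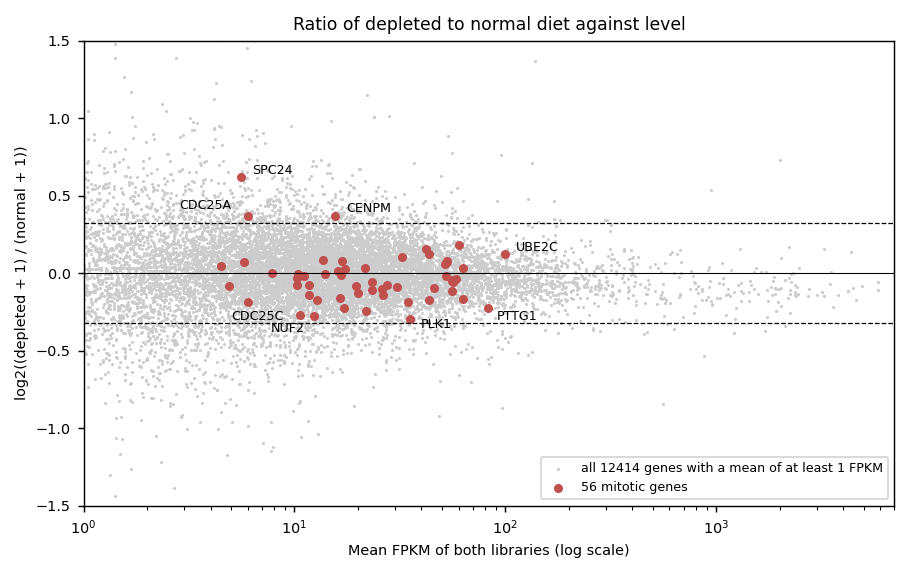
Log2 ratio of depleted to normal diet (vertical) against mean FPKM (horizontal, log scale), with a grey point for each of 12414 genes, of which 75 lie outside the drawn range, and a red point for each of the 56 mitotic genes. Dashed lines mark a log2 ratio of 0.32 in either direction, and of the 56 genes SPC24, CENPM and CDC25A lie above the upper line and 0 below the lower line.

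The level of the members spanned a mean of 4.50 FPKM for CENPI to 99.3 FPKM for UBE2C, with a median of 21.8 FPKM beside 12.3 FPKM for all genes, and 42 of 56 were above that value. The size of a ratio is read against its level: the SD of the log2 ratio over all genes without short RNAs was 0.24 between 5 and 10 FPKM and narrowed to 0.20, 0.17 and 0.16 in the bands that end at 20, 50 and 100 FPKM. For a transcript of 2 kb, counting error alone gave a standard error of 0.24 at 5 FPKM, of 0.12 at 20 FPKM and of 0.08 at 50 FPKM. SPC24 was the 1 member outside the central 95% of genes of its level.

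MKI67, the Ki-67 antigen that coats mitotic chromosomes, was 39.9 FPKM with normal food and 44.5 FPKM with depleted food (log2 ratio 0.15). TOP2A, which untangles sister chromatids, was 57.8 and 55.6 FPKM (-0.05), so this pair of proliferation markers did not lean one way.

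Of the 4 cyclin genes 1 was higher and 3 were lower, also with an equal FPKM sum. All but CCNF encode subunits that switch CDK1 on. CCNB1, cyclin B1, was 51.5 FPKM with normal food and 54.2 FPKM with depleted food (0.07), whereas CCNB2, cyclin B2, was 66.8 and 59.4 FPKM (-0.17). The ratio of CCNB1 to CCNB2 in FPKM was therefore 0.771 on the normal diet and 0.913 on the depleted diet. CCNA2, cyclin A, which acts from S phase into early mitosis, was 27.7 and 25 FPKM (-0.14). CCNF, cyclin F, which is part of a ubiquitin ligase rather than a partner of CDK1, was 10.5 and 9.96 FPKM (-0.08).

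CDK1, the kinase itself, was 56.7 and 54.8 FPKM (-0.05), close to the median of the members. Its activators, the CDC25 phosphatases, had ratios of both signs. CDC25A, which also acts at the start of S phase, was 5.14 FPKM with normal food and 6.93 FPKM with depleted food (0.37). CDC25B, which starts mitotic entry at the centrosome, was 52.7 and 52.1 FPKM (-0.02), and CDC25C, which CDK1 itself activates, was 11.7 and 9.56 FPKM (-0.27). The ratio of CDC25A was past the threshold, and counting error at its level is large: a transcript of 1 kb would carry about 36 and 48 fragments, and a higher ratio was found in 5.30% of genes at 5 to 10 FPKM. WEE1, the kinase that holds CDK1 inactive, was 46.1 and 40.7 FPKM (-0.18).

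The polo-like kinases were lower, on either scale. PLK1, which drives centrosome maturation, kinetochore attachment and cytokinesis, was 39.1 FPKM with normal food and 31.6 FPKM with depleted food (-0.30). This was the lowest ratio of the 56 genes, and 4.46% of genes at 20 to 50 FPKM had a lower ratio. PLK4, which starts centriole duplication, was 12.3 and 11.1 FPKM (-0.14), within a counting standard error of 0.16 for a transcript of 2 kb. AURKA, Aurora A of the spindle poles, was higher at 41.7 and 45.5 FPKM (0.12), as was TPX2, the spindle protein that activates it, at 56.3 and 64.0 FPKM (0.18). PLK1 and Aurora A, which act together at mitotic entry, thus had ratios of opposite sign. A ratio higher than that of AURKA was found in 22.3% of genes at 20 to 50 FPKM.

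The chromosomal passenger complex corrects faulty attachments at the centromere and then moves to the midzone. Its kinase AURKB was 21.5 and 22 FPKM (0.03), and its scaffold INCENP 16.5 and 17.4 FPKM (0.08). BIRC5, survivin, was 23.8 and 22.9 FPKM (-0.05), and CDCA8, borealin, was 23.9 and 20.0 FPKM (-0.24). On the normal diet INCENP, BIRC5 and CDCA8 stood at 0.767, 1.11 and 1.11 times the FPKM of AURKB. On the depleted diet these were 0.794, 1.04 and 0.91, so the 4 subunits kept similar levels per length in both libraries.

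The spindle checkpoint delays anaphase until every kinetochore is attached. Of its 5 genes 1 was higher and 4 were lower as deposited. With an equal FPKM sum these were 2 and 3, beside 41.5% of all genes lower. BUB1 had the lowest ratio, at 18.5 and 15.7 FPKM (-0.23). TTK, the kinase MPS1 that starts the signal, was 13.6 and 12.0 FPKM (-0.17). BUB1B, which encodes BUBR1 of the inhibitory complex, was 26.8 and 25 FPKM (-0.10). MAD2L1 and BUB3, the most abundant of the 5, had ratios near 0, at 56.8 and 55.1 FPKM (-0.04) and at 62.5 and 64.0 FPKM (0.03).

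The NDC80 complex, 4 proteins that join the kinetochore to microtubules, held both the highest ratio and a low one. SPC24 was 4.22 FPKM with normal food and 7.01 FPKM with depleted food (0.62). It was the lowest of the 4 subunits in both libraries, at 0.202 and 0.368 times the FPKM of NDC80. For a transcript of 1 kb these values are about 30 and 48 fragments, with a standard error of 0.34 on a log2 ratio of 0.73 without a pseudocount, and 0.975% of genes at its level had a higher ratio. Its direct partner SPC25 showed no such difference, at 13.9 FPKM on both diets (0.00). NDC80 was 20.9 and 19.0 FPKM (-0.13), and its partner NUF2 was 13.7 and 11.1 FPKM (-0.28). The subunits thus had ratios of both signs, and that of SPC24 rests on few fragments.

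The ratios of the centromere proteins were close to 0 except for CENPM, with 3 higher and 3 lower as deposited. With an equal FPKM sum these were 5 and 1, beside 41.5% of all genes lower. CENPM, a small protein of the inner kinetochore network, was 13.4 FPKM with normal food and 17.7 FPKM with depleted food (0.37), and 2.92% of genes at 10 to 20 FPKM had a higher ratio. CENPA, the histone variant that marks the centromere, was 11.1 and 11.0 FPKM (-0.02). CENPN, which reads CENPA nucleosomes, was 16.0 and 16.2 FPKM (0.02), and CENPI, of the same network as CENPM, was 4.41 and 4.59 FPKM (0.05). The outer proteins CENPE, a kinesin that brings chromosomes to the metaphase plate, and CENPF, a kinetochore protein of G2 and mitosis, were 7.87 and 7.85 FPKM (0.00) and 20.2 and 19.0 FPKM (-0.08). The ratio of CENPM thus lay above those of CENPN and CENPI of the same network.

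The 10 kinesins, the motors of the spindle, had the narrowest spread of the 12 role groups, with ratios from -0.16 to 0.09 and an SD of 0.08. As deposited 2 were higher and 8 lower, and with an equal FPKM sum 5 and 5, beside 41.5% of all genes lower on that scale. KIF11, which pushes the spindle poles apart, had the lowest ratio at 17.3 and 15.4 FPKM (-0.16), and KIF2C, which takes microtubules apart at centromeres, was 24.4 and 22.5 FPKM (-0.11). KIF20A, needed for cytokinesis, had the highest at 13.2 and 14.1 FPKM (0.09), followed by KIF14 at 5.60 and 5.93 FPKM (0.07). All 10 lay within 0.2 of 0. KIF22, which moves chromosome arms, was 31.5 and 29.6 FPKM (-0.09), and KIF23 of the midzone was 28.2 and 26.7 FPKM (-0.08). KIF15, a partner of KIF11, was 5.04 and 4.70 FPKM (-0.08). KIF4A, KIF18A and KIF18B, which set the length or dynamics of microtubules, lay between -0.03 and 0.00.

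Among the genes of the spindle and of cytokinesis 3 were higher and 4 lower on either scale. After TPX2, the highest were ECT2, which activates RhoA at the division site, at 51.5 and 54.3 FPKM (0.08), and HMMR, a spindle protein, at 17.1 and 17.5 FPKM (0.03). ANLN, which anchors the contractile ring, was the lowest at 36.9 and 32.4 FPKM (-0.18). NUSAP1, which bundles spindle microtubules, was 58.3 and 53.9 FPKM (-0.11), and PRC1, which bundles them in the midzone, was 47.5 and 44.4 FPKM (-0.10). ASPM, of the spindle poles, was 12.0 and 11.3 FPKM (-0.08). ECT2 and ANLN, which meet at the cleavage furrow, therefore had ratios of opposite sign. That of ECT2 was close to a counting standard error of 0.08 for a transcript of 2 kb, and 21.1% of genes at 50 to 100 FPKM had a higher one.

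Anaphase starts when the APC/C ubiquitin ligase destroys securin and cyclin B. CDC20, its mitotic activator, was 50.7 FPKM with normal food and 52.8 FPKM with depleted food (0.06), and UBE2C, its ubiquitin-conjugating enzyme and the most abundant of the 56 genes per length, was 95.1 and 104 FPKM (0.12). Securin and its target were lower. PTTG1, securin, was 88.8 and 76.0 FPKM (-0.22), and ESPL1, the separase that securin holds in check, was 6.45 and 5.55 FPKM (-0.19). The ratio of ESPL1 was within a counting standard error of 0.22 for a transcript of 2 kb. For PTTG1 that error was 0.06. PTTG2, PTTG3P and KIF4B, near-identical copies of PTTG1 and KIF4A, were listed at 0 in both libraries.

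FOXM1, the factor that switches on G2 and mitosis genes, was 31.2 and 33.6 FPKM (0.10), and MYBL2, B-MYB, was 58.8 and 57.4 FPKM (-0.03, and above 0 with an equal FPKM sum). FOXM1 was 7.6% higher on the depleted diet, and both factors stayed well inside the threshold.

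**Figure D2:**
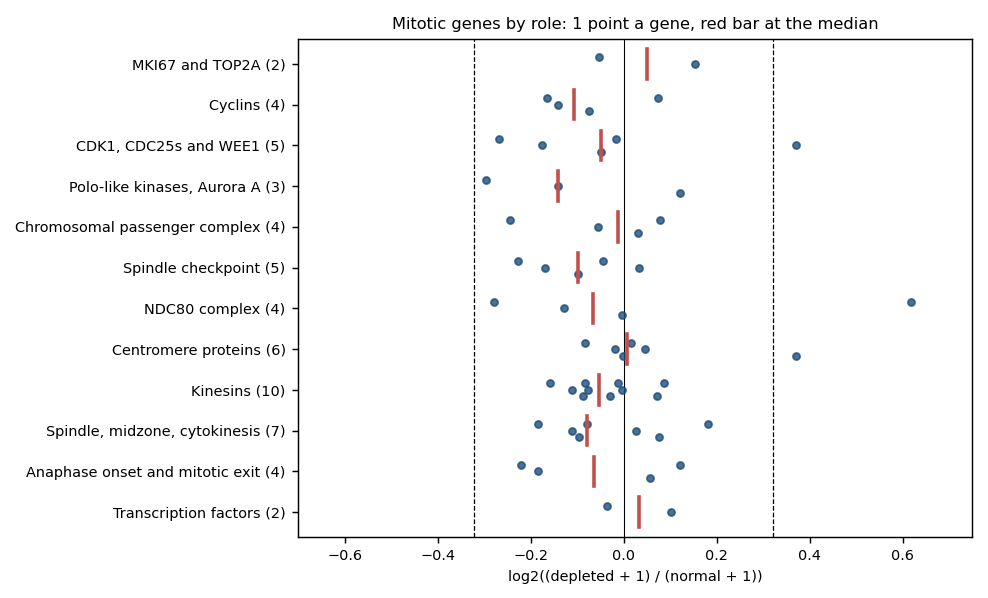
Log2 ratio of depleted to normal diet for each of the 56 genes, grouped by role, with the number of genes in brackets, a red bar at the group's median and dashed lines at a log2 ratio of 0.32 in either direction. Kinesins lie between -0.16 and 0.09, while the NDC80 complex runs from -0.28 (NUF2) to 0.62 (SPC24).

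Other genes of the mitotic pathway, on lists that leave out these 56 genes, were read in the same way. Over 6 lists with 120 measured genes, 53 were higher and 67 lower (55.8%), and the median was -0.02. Past the threshold lay 2 in each direction, beside 6.94% of all genes higher and 7.15% lower. Of 17 genes of the APC/C and its enzymes 7 were higher and 10 lower as deposited, and 10 and 7 with an equal FPKM sum. Of all genes 50.6% were lower as deposited and 41.5% with an equal FPKM sum. FBXO5, the APC/C inhibitor EMI1 that is made from the start of S phase, was 8.33 and 11.5 FPKM (0.42), and ANAPC16 was the lowest at 30.7 and 25.6 FPKM (-0.25). Of 31 other kinetochore and centromere genes 16 were higher and 15 lower. NSL1, of the MIS12 complex that the NDC80 complex docks on, was 2.71 and 4.47 FPKM (0.56). At its level, 1 to 5 FPKM, 13.4% of genes lay above the threshold. ITGB3BP, which encodes CENP-R, was 25.2 and 17.9 FPKM (-0.47). Mitotic entry kinases and phosphatases were the list with the lowest median among the 6, at -0.11 (-0.07 with an equal FPKM sum), with 5 higher and 13 lower. PBK, a mitotic kinase, was its lowest at 6.64 and 4.76 FPKM (-0.41), and GSG2, haspin, its highest at 2.74 and 3.41 FPKM (0.24).

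Cohesin, which holds sister chromatids together, had 7 genes higher and 8 lower, and 9 and 6 with an equal FPKM sum, between ESCO1, an acetyltransferase of cohesin, at 5.65 and 4.86 FPKM (-0.18) and SMC1A at 25.5 and 32.0 FPKM (0.32, short of the threshold before rounding). Condensin, which compacts chromosomes, had 6 of 8 genes higher with a median of 0.02, the highest being NCAPG2 at 25.4 and 29.5 FPKM (0.21) and the lowest SMC2 at 12.5 and 12.0 FPKM (-0.06). The 31 other spindle and cytokinesis genes had 12 higher and 19 lower, and 20 and 11 with an equal FPKM sum. They ran from TROAP (31.7 and 26.1 FPKM, -0.27) to SHCBP1 (5.28 and 6.10 FPKM, 0.18). The equal-sum counts for cohesin and for these genes stand beside 41.5% of all genes lower. In the DREAM and MuvB list, which includes subunits of the complexes that bind the CHR and CCAAT elements, 8 of 14 genes were higher. Its highest was NFYA at 11.3 and 13.7 FPKM (0.26) and its lowest LIN9, a MuvB subunit, at 5.60 and 4.28 FPKM (-0.32).

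Genes that act earlier in the cycle were set beside the mitotic genes. Among 36 DNA replication genes, 25 had a higher and 11 a lower value with depleted food (69.4% higher), with a median of 0.06, beside -0.05 for the mitotic genes. With an equal FPKM sum 30 were higher and 6 lower, beside 41.5% of all genes lower. The medians were then 0.105 and 0.00, a step that shifts both lists alike. GINS3, a helicase subunit, was the 1 replication gene past the threshold, at 3.43 and 5.02 FPKM (0.44). Above it lay 6.94% of all genes, and 13.4% of genes at 1 to 5 FPKM, the level of GINS3. RFC3 was the lowest at 21.2 and 18.7 FPKM (-0.17). Of 16 measured G1 and S phase cyclins, kinases and E2F genes, CDC25A among them, 11 were higher and 5 lower, and the median was 0.14. Its genes past the threshold were CDC25A, CCND1, cyclin D1, at 32.8 and 43.0 FPKM (0.38), and E2F8 at 3.88 and 5.62 FPKM (0.44). E2F8 averaged under 5 FPKM, as did GINS3. The lowest was E2F2 at 1.35 and 0.90 FPKM (-0.31). With 1 library a diet, the difference between the mitotic list and these lists could not be tested.

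**Figure D3:**
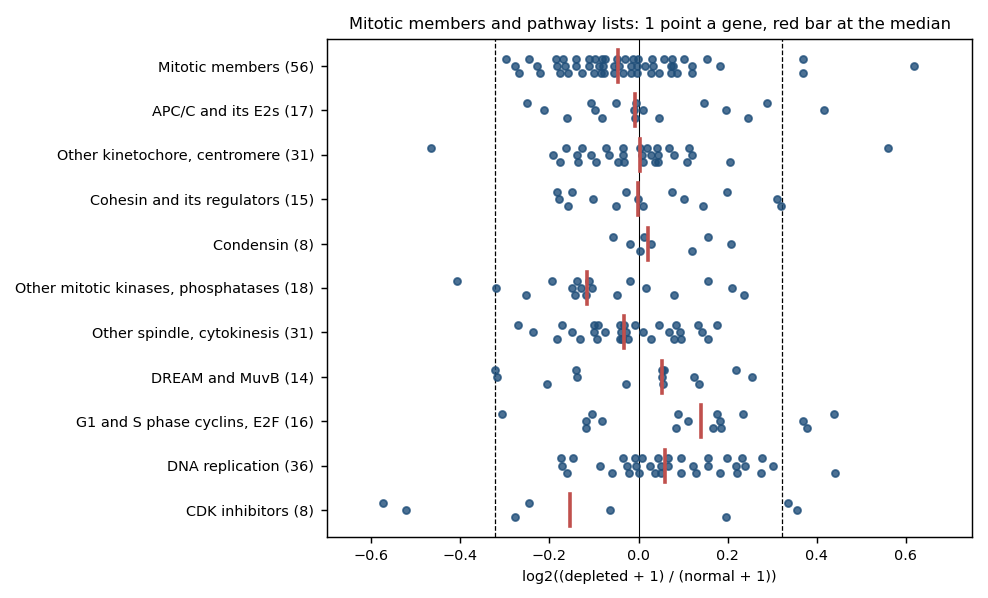
Log2 ratio of depleted to normal diet for the 56 mitotic members and for each measured gene of 10 pathway lists, with the number of genes in brackets, a red bar at the median and dashed lines at a log2 ratio of 0.32 in either direction. The medians of the replication list (0.06) and of the G1 and S phase list (0.14) lie above that of the mitotic members (-0.05).

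CDK inhibitors, which brake the cycle, had the widest spread of the pathway lists, with an SD of 0.37, 3 of 8 higher and a median of -0.15, on either scale below 0. Past the threshold lay 2 in each direction, beside 6.94% of all genes higher and 7.15% lower. CDKN1A, p21, was 32.6 FPKM with normal food and 21.6 FPKM with depleted food (-0.57). The other gene past the threshold in that direction averaged under 5 FPKM. CDKN1C, p57, was higher at 4.88 and 6.52 FPKM (0.35), as was CDKN3, a phosphatase that acts on CDK1 and is itself made with the mitotic genes, at 22.1 and 28.2 FPKM (0.34).

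For 9 of the 56 genes another gene with a mean of at least 1 FPKM overlaps in RefSeq's positions, such as ERN2 for PLK1 (11.8 and 11.9 FPKM) and EXOSC9 for CCNA2 (18.4 and 16.3 FPKM), and the sources used here do not say whether counting used strand. SPC24, CENPM and CDC25A had none. Without the 9 genes, a choice made after seeing the data, 16 genes had a higher and 31 a lower value, and the median was -0.04.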

How the data were processed

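RNA from 2 HT-29 tumours or tumour pools was sequenced from stranded mRNA libraries, per the labels' protocols, 1 library for each diet. The deposited values are FPKM, per the file headers. The submitters' processing notes list Cuffdiff 2.2.1, SAMtools 0.1.18, TopHat2 2.1.1, Bowtie2 2.2.8 and the build hg19, with no order. The sources used here do not give removal of mouse reads, the strand setting of counting or the annotation.

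Here the 2 files were joined by gene symbol (Python 3.11.15, pandas 2.3.3, NumPy 2.4.6), a pseudocount of 1 FPKM was added, and genes averaging 1 FPKM or more were kept. The pseudocount understates ratios of low genes. FPKM are not counts, so no count model was run, and with 1 library a diet nothing was tested. Depth is the fragment total at which FPKM times length came closest to whole numbers, below 6 fragments, for 343 and 365 genes with 1 transcript over 800 nt in GENCODE 29, made for a different build. It covers counting error only. The ratios, their medians and the counts past the threshold were tested on simulated data with planted ratios larger than any member's. The depth estimate and the promoter matching were not part of that test.

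Members and lists were chosen with earlier results of these data known. Of 298 list entries 6 were matched under an older symbol. Any member could be named, and of each pathway list the highest, the lowest and each gene past the threshold at 5 FPKM or more; copies of members, cell type markers, overlapping genes and level ratios were named outside this rule after values were seen. Promoters came from RefSeq tables on GRCh38.p14. A planned motif count in proteins was not run. Alternatives covered pseudocount, filter, scale, fold, background and mean.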

Additional observations from a re-analysis of the deposited data

How the results depend on the processing

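No paired analysis was possible because there was 1 library per diet, which also left no replicate to omit. The count of members below the median of all genes, and the values without overlapping genes, were added after seeing the data. The median of the members, -0.046, was 0.000 after scaling to an equal FPKM sum and between -0.064 and -0.028 in its other alternatives. Members higher and lower, 19 and 37, ranged over 16 to 28 and 28 to 38. The split was even, at 28 and 28, with an equal FPKM sum. Fewer members were counted in 2 settings, which gave 16 and 31 of 47, and 18 and 36 of 54. Against 3 members above the threshold of 0.32 and 0 below it, 1 was higher with a pseudocount of 5 FPKM, beside 2.38% of all genes, since it shrinks low genes by construction, 5 were higher and 14 lower at 1.1-fold, beside 23.6% and 23.4% of all genes, and 1 was higher at 1.5-fold, beside 1.65%. Members below the median of all genes numbered 33 to 37, and rescaling a library shifts members and median alike. No member reached 2-fold under any alternative. Over 5 settings each, the 56 members gave 280 log2 ratios, of which 278 kept their side of the threshold. The other 2, CDC25A (0.24) and CENPM (0.30), fell short of it with a pseudocount of 5 FPKM. For 22 other named genes 95 of 110 values kept their side, 11 fell short and 4 newly passed, with none reversed. Of 110 medians of role groups and lists 7 moved by more than 0.05 or changed sign. Depth limits ratios below about 10 FPKM most.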

Other observations

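Within the 47 mitotic genes with a promoter window, the 39 with a CHR-type match had 9 genes with a higher value in the depleted-diet library and 30 with a lower one, at a median log2 ratio of -0.08, and the 8 without a match had 4 and 4, with a median of 0.00. Over all 9212 matched genes averaging 1 FPKM or more, 936 of the 1920 with a CHR-type match were higher and 984 lower, the median being -0.01, beside 0.00 for the 7292 without. For CCAAT the order among the mitotic genes was the other way: 12 of 38 genes with a match were higher, with a median of -0.05, and 1 of 9 without, with a median of -0.10. These splits were made after the values were seen and were not tested.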
